A study of Homo sapiens with 12 samples.

Results

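The 9 genes described here are NFE2L2, KEAP1, NQO1, HMOX1, GCLC, GCLM, TXNRD1, SRXN1 and OSGIN1, which code for the transcription factor NRF2, its inhibitor, and 7 antioxidant genes known as NRF2 targets. They were taken by gene name from the 25733 genes of the deposited table. All 9 were among the 12341 genes that passed the filter on low values, which asked for 1 FPKM or more as the mean of the 12 libraries. FPKM are reads per gene, scaled by the gene's length and the library's depth, so levels can be compared between genes.

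The samples were bulk RNA libraries of HCT116, an established cell line from a human colorectal carcinoma. There were 3 libraries each of untreated control cells, cells given TGF-β, cells given NH4Cl as a source of ammonia, and cells given both. By the study's methods NH4Cl was used at 10 mM over 24 h, and TGF-β at 200 pM during a last 1 h that came after 23 h in vehicle or NH4Cl; the sample labels state neither doses nor times. All groups were unmodified cells of this 1 line. Depth ran from 14807630 to 18191998 reads assigned to genes (median 15484798). Epithelial markers were high in all 12 libraries (EPCAM at 229 to 278 FPKM), whereas the leukocyte marker CD3E was at 0.0726 to 0.28, the endothelial PECAM1 and CDH5 at 0.0075 to 0.355, and the fibroblast COL1A2 at most 0.0185. COL1A1, also a fibroblast marker, was at 1.14 to 2.62. Replicate 3 of every group stood apart from replicates 1 and 2, with 4.50% to 5.12% of its reads on mitochondrial genes against 2.46% to 3.18%. Because nothing states that replicates were separate cultures, p-values measure only the spread between these libraries.

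In unstressed cells, KEAP1 holds NRF2 in the cytoplasm and hands it to a ubiquitin ligase, so that NRF2 is rapidly degraded. Oxidants and electrophiles modify KEAP1, and a sequestering partner such as p62 (the product of SQSTM1) can occupy it, after which NRF2 accumulates, pairs with small MAF proteins and binds antioxidant response elements near genes for glutathione synthesis, thioredoxin recycling, quinone reduction and heme breakdown. Since NRF2 is controlled largely through the stability of the protein, its mRNA need not follow its activity.

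The core of the antioxidant response element is shown for the members that hold it near their start, because NRF2 acts through this sequence. In the 250 bases before the start of 27305 RefSeq promoters (GRCh38.p14), the canonical core TGACNNNGC occurred on either strand in 11% of promoters, the variant TGAGNNNGC in 14.8%, and one or the other in 24.2%. Of the members, 8 were matched to that table, HMOX1 not among them, and 5 held a match, 6 matches in all. KEAP1, GCLC and SRXN1 had none in this window. Each window below is written 5′ to 3′ on the strand of its gene, with the match in capitals; where the match is on the opposite strand, the capitals are the core's reverse complement.
GCLM, opposite strand, chr1:93909446-93909474: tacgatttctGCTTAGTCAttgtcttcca
TXNRD1, gene strand, chr12:104215670-104215698: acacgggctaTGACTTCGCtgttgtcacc
NQO1, opposite strand, chr16:69726661-69726689: tcctggagctGCAGCCTCAgcatcctccg
OSGIN1, opposite strand, chr16:83953131-83953159: acgggcccctGCTGACTCAcgcttatgaa
NFE2L2, gene strand, chr2:177264259-177264287: gtctggggacTGAGCCCGCtcgcgtgggc
NFE2L2, gene strand, chr2:177264132-177264157: gctggccgtcTGAGCCGGCgcggccc

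The GCLM and TXNRD1 matches are of the canonical core and begin 34 and 99 bases before the RefSeq start, and the other 4 are of the variant. The OSGIN1 match overlaps TGANTCA, the AP-1 motif, which occurred in 6.6% of promoters. In GENCODE release 29, the TXNRD1 match lies outside the gene, the NQO1 and GCLM matches overlap an exon, and those of NFE2L2 and OSGIN1 lie in introns of longer transcripts. A match describes these letters only, and the data here do not measure binding.

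The members differed widely in level. By the mean of the 12 libraries the order was KEAP1 at 45.6 FPKM, TXNRD1 at 36.4, NQO1 at 13.5, NFE2L2 at 11.7, GCLC at 8.86, GCLM at 5.98, SRXN1 at 4.92, HMOX1 at 4.47 and OSGIN1 at 1.90. KEAP1 was higher than 92.1% of the genes tested and OSGIN1 higher than 14.8%. Within the control libraries, neighbours in this order whose values overlapped were NQO1 (10.5 to 12.9) with NFE2L2 (10.4 to 13.1), GCLM (4.93 to 5.85) with SRXN1 (4.83 to 5.54), and SRXN1 with HMOX1 (3.07 to 5.19). The levels of OSGIN1, HMOX1 and SRXN1 rest on as few as 60, 101 and 174 reads in a library, for which counting error alone gives a coefficient of variation of 12.9%, 9.95% and 7.58%.

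**Figure D1:**
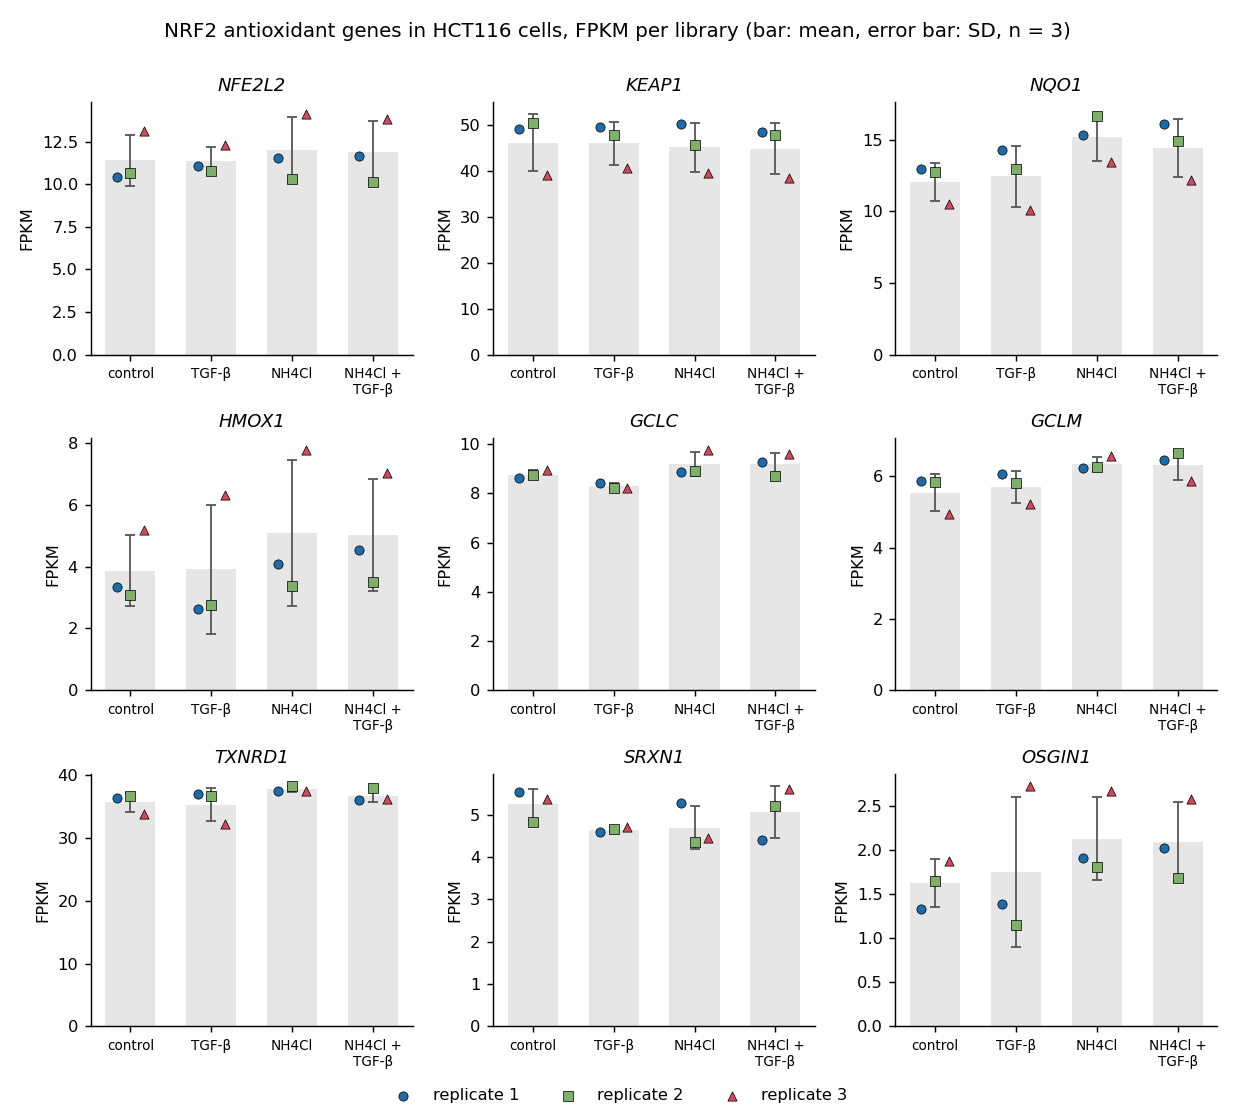
FPKM (vertical axes, each from 0) of the 9 NRF2 genes in the 4 groups, named under each bar; bars are group means, error bars the SD (n = 3), and symbols the single libraries by replicate number. The NH4Cl libraries of NQO1 (13.4 to 16.7) lie above the controls (10.5 to 12.9). Replicate 3 is the highest library of every group for HMOX1, OSGIN1 and NFE2L2 and the lowest for KEAP1 and NQO1.

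For 6 members replicate 3 differed from replicates 1 and 2 in the same direction in every group. HMOX1 was higher in replicate 3 than the mean of replicates 1 and 2 by 0.56 to 0.98 in log2(FPKM + 1) over the 4 groups, OSGIN1 by 0.21 to 0.72 and NFE2L2 by 0.16 to 0.34. NQO1 and KEAP1 went the other way in every group, at -0.40 to -0.24 and -0.34 to -0.25. TXNRD1 was lower in replicate 3 by -0.18 to -0.01, and GCLC, SRXN1 and GCLM differed in sign between groups, from -0.21 to 0.19. The part of the mitochondrial share of reads in these differences was not tested. Over all genes tested, same-numbered libraries deviated together from the means of their groups in all 18 pairs (r of 0.349 to 0.774), so values are also given from a limma fit with the replicate number as a block, which compares libraries within a number.

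The comparison of NH4Cl with control asks what ammonium chloride alone did to these genes. NQO1, which reduces quinones without forming reactive semiquinones, rose by 0.31 in log2(FPKM + 1) in the fit with the block (95% interval 0.19 to 0.43) and was the only member past the threshold there. In bulk RNA, a difference in all cells and one in a share of them cannot be told apart. In limma without the block none of the 9 members passed an adjusted p (Benjamini-Hochberg over all genes tested) of 0.05, where 0.381% of all genes did, and none had an unadjusted p under 0.05, which 10.8% of all genes had. With the block 1 of 9 passed, where 13.6% of all genes did, and 4 of 9 had an unadjusted p under 0.05, against 29% of all genes. The median difference of the members was 0.08 in log2(FPKM + 1), with 7 of 9 above 0, against 8.4e-05 over all genes, 50.1% of which were above 0. Groups that did not overlap are named below, but the share of all genes without overlap is not given here. Such statements describe single genes and were not tested.

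NQO1 (chr16:69706996-69726951 on GRCh38, minus strand) was at 12.9, 12.7 and 10.5 FPKM in control replicates 1, 2 and 3, and at 15.3, 16.7 and 13.4 in the NH4Cl replicates. The groups did not overlap, and NH4Cl was 1.19, 1.31 and 1.28 times control within the numbers, while replicate 3 was the lowest of both groups. The difference in log2(FPKM + 1) was 0.31, with SE 0.0535 and adjusted p = 0.00575 in limma with the block, against SE 0.14 and adjusted p = 0.467 without it. Leaving out each of the 6 libraries in turn with the block kept the adjusted p between 0.00464 and 0.0375. With replicates 1 and 2 only it was 0.0396 with the block and 0.0279 without it, so NQO1 also passed in limma without the block once replicate 3 was left out of every group. Of NQO1's exon bases, 17.7% are shared with AC092115.2, an antisense gene that the deposited table does not list, and whether reads were counted by strand is not given in the sources used here.

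GCLM (chr1:93885205-93909456, minus strand), the modifier subunit of the enzyme that limits glutathione synthesis, was at 5.85, 5.84 and 4.93 FPKM in control and at 6.23, 6.25 and 6.56 with NH4Cl. These groups did not overlap either, but the ratio was 1.06 and 1.07 in replicates 1 and 2 and 1.33 in replicate 3, whose control was the lowest library. The difference was 0.17, with an adjusted p of 0.0857 with the block and 0.467 without it in limma. The catalytic subunit GCLC (chr6:53497341-53616970, minus strand) was at 8.61 to 8.94 FPKM in control and 8.88 to 9.76 with NH4Cl, a difference of 0.06 (95% interval with the block -0.03 to 0.16). A lincRNA at 5.27 FPKM, AL033397.1, shares 6.12% of GCLC's exon bases on the same strand.

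HMOX1 (chr22:35380361-35394214, plus strand) codes for heme oxygenase, which opens heme into biliverdin, iron and carbon monoxide. It was at 3.34, 3.07 and 5.19 FPKM in control and at 4.09, 3.38 and 7.77 with NH4Cl. Each NH4Cl library was above the control of its number, 1.23, 1.10 and 1.496 times, yet the groups overlapped because replicate 3 was high in both. The difference of 0.28 had an adjusted p of 0.0805 with the block and 0.872 without it in limma, and the 95% interval with the block ran from 0.07 to 0.49. With replicates 1 and 2 only and the block, the difference was 0.17 (adjusted p = 0.291 in limma). Without the block it ran from -0.0174 to 0.482 when a library was left out.

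In the thioredoxin system neither gene passed the threshold. TXNRD1 (chr12:104215779-104350305, plus strand), the reductase that recycles thioredoxin with NADPH, was at 33.9 to 36.8 FPKM in control and 37.5 to 38.4 with NH4Cl. Its groups did not overlap, but the difference was 0.08, with a 95% interval of -0.01 to 0.17 with the block. SRXN1 (chr20:646615-653370, minus strand), which repairs overoxidized peroxiredoxins, was the one target whose NH4Cl library was below control in 3 of 3 numbers, at 4.36 to 5.28 FPKM against 4.83 to 5.54. That difference, -0.13, had a 95% interval of -0.32 to 0.05 with the block. AL121758.1, listed at 0.0395 FPKM, shares 85.0% of SRXN1's exon bases on the same strand, so how reads were divided between them is uncertain.

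OSGIN1 (chr16:83948282-83966332, plus strand), an oxidative stress-induced growth inhibitor, was the lowest member, at 1.33, 1.65 and 1.87 FPKM in control and 1.91, 1.80 and 2.66 with NH4Cl. It was higher in 3 of 3 numbers, by 0.25 in log2(FPKM + 1), with an adjusted p of 0.167 with the block and 0.757 without it in limma. Without NH4Cl replicate 3, its highest NH4Cl library, the difference was 0.13 in the fit without the block. Neither of the regulators passed the threshold. NFE2L2 (chr2:177227595-177392697, minus strand) was at 10.4, 10.6 and 13.1 FPKM in control and 11.5, 10.3 and 14.1 with NH4Cl, higher in 2 of 3 numbers, a difference of 0.06 (95% interval with the block -0.06 to 0.18). KEAP1 (chr19:10486120-10503741, minus strand) was at 49.1, 50.5 and 39.1 FPKM and at 50.3, 45.7 and 39.7, a difference of -0.03 (-0.11 to 0.06). On the same strand, AC009119.2, listed at 0.0259 FPKM, shares 13.9% of OSGIN1's exon bases, and AC019080.1, at 0.116 FPKM, 17.6% of NFE2L2's.

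The comparison of NH4Cl plus TGF-β with TGF-β gives the NH4Cl difference in cells that also had 1 h of TGF-β, from 6 other libraries. NQO1 and HMOX1 both rose here in the fit with the block, 2 of 9 members where 18.8% of all genes passed. Without the block limma called 0 of 9, where 1.03% of all genes were called, and 1 of 9 (GCLC) had an unadjusted p under 0.05, against 13.3% of all genes. The median difference of the members was 0.13, with 8 of 9 above 0 and KEAP1 at -0.04. Over all genes the median was -5.7e-05, and 49.9% were above 0.

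NQO1 was at 14.3, 13.0 and 10.1 FPKM with TGF-β and at 16.1, 14.9 and 12.2 with both. The ranges overlapped, but the ratio within the numbers was 1.13, 1.15 and 1.20, higher in 3 of 3. The difference of 0.20 had an adjusted p of 0.0294 in limma with the block and 0.615 without it. It stayed under 0.05 in only 1 of 6 fits with the block that left out a library, the one without TGF-β replicate 1, and reached 0.107 without replicate 1 of both treatments and 0.122 with only replicates 1 and 2. The difference itself was 0.16 to 0.25 in these 6 fits with the block. Without the block it was 0.07 to 0.31 when a library was left out, the lowest without TGF-β replicate 3, and 0.12 and 0.31 without replicates 1 and 3 of both treatments.

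HMOX1 was at 2.64, 2.77 and 6.32 FPKM with TGF-β and at 4.52, 3.51 and 7.03 with both. The ratio within the numbers was 1.71, 1.27 and 1.11, so the smallest rise was in replicate 3, where the gene was highest, and the groups overlapped. The difference of 0.33 had an adjusted p of 0.0373 in limma with the block and 0.767 without it. With only replicates 1 and 2 and the block, the difference was 0.43 and the adjusted p 0.0304 (0.0424 with these replicates and no block), whereas without TGF-β replicate 1 they were 0.22 and 0.145. The call held in 1 of 6 fits that left out a library, the one without TGF-β replicate 3. Without the block the difference was 0.15, 0.18 and 0.66 without TGF-β replicates 1, 2 and 3, and 0.52 and 0.10 without replicates 2 and 3 of both treatments.

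Neither gene of the glutathione pair passed the threshold for both treatments against TGF-β. GCLC was at 8.44, 8.21 and 8.23 FPKM with TGF-β and at 9.26, 8.72 and 9.59 with both. The groups did not overlap, and the difference of 0.13 had an adjusted p of 0.0554 with the block and 0.324 without it in limma. GCLM was at 6.07, 5.80 and 5.22 and at 6.46, 6.65 and 5.86, higher in 3 of 3 numbers although the groups overlapped. Its difference was 0.13, with an adjusted p of 0.156 with the block and 0.537 without it in limma, and the 95% interval with the block included 0. OSGIN1 was 1.46 and 1.47 times higher in replicates 1 and 2 and 0.944 times in replicate 3, a difference of 0.20 (adjusted p = 0.235 with the block in limma). Without TGF-β replicate 3, its highest TGF-β library, the adjusted p with the block was 0.0445.

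For the other members the 95% interval with the block included 0: 0.10 for SRXN1 (-0.09 to 0.29), 0.06 for TXNRD1 (-0.03 to 0.15), 0.05 for NFE2L2 (-0.07 to 0.17) and -0.04 for KEAP1 (-0.12 to 0.05).

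**Figure D2:**
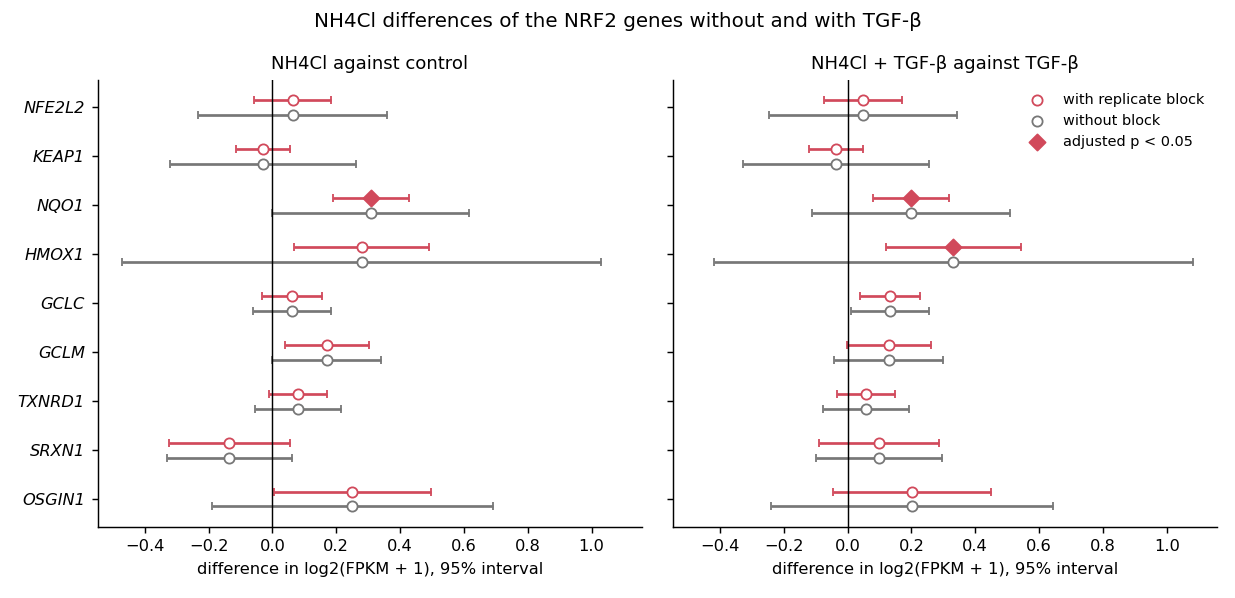
Difference in log2(FPKM + 1) (horizontal axis) of each NRF2 gene for NH4Cl against control (left) and NH4Cl plus TGF-β against TGF-β (right), with 95% intervals from limma with (red) and without (grey) the replicate number as a block; filled diamonds have an adjusted p under 0.05. The block narrows the interval of HMOX1 for NH4Cl from -0.47 to 1.03 down to 0.07 to 0.49, and only NQO1 (both panels) and HMOX1 (right) carry diamonds.

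Cells given both treatments were also set against untreated control, the same control libraries as in the comparison of NH4Cl with control. NQO1 was 1.25, 1.17 and 1.16 times control, a difference of 0.23 with an adjusted p of 0.0152 in limma with the block and 0.544 without it. It was the 1 member of 9 called with the block, where 18.4% of all genes were called, and 0 of 9 were called without it, where 0.948% were and no member had an unadjusted p under 0.05. Without control replicate 1, control replicate 2 or replicate 1 of both treatments, the adjusted p of NQO1 with the block was 0.0653, 0.0604 and 0.0633, and with only replicates 1 and 2 it was 0.0493 with the block and 0.0383 without it. Without the block its difference was 0.15 without control replicate 3 and 0.15 without replicate 1 of both treatments. GCLM did not overlap between these groups, with 0.16 and an adjusted p of 0.0813 with the block, and HMOX1 differed by 0.29 with 0.0609.

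**Figure D3:**
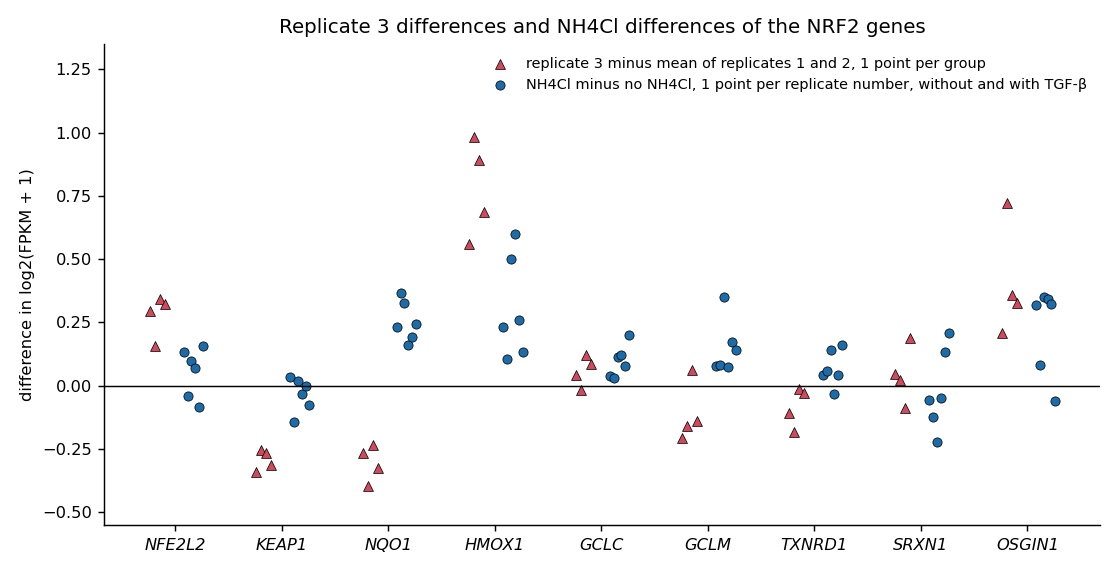
Differences in log2(FPKM + 1) (vertical axis) of each NRF2 gene: replicate 3 minus the mean of replicates 1 and 2, 1 red triangle per group, and NH4Cl minus no NH4Cl within a replicate number, 1 blue point per pair without or with TGF-β. For NQO1 the replicate 3 differences are all negative (-0.40 to -0.24) and the 6 NH4Cl differences all positive, and for HMOX1 the replicate 3 differences (0.56 to 0.98) are mostly larger than the NH4Cl ones.

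TGF-β for 1 h moved none of these genes past the threshold. Against control, limma called 0 of 9 members without the block (0% of all genes) and 0 of 9 with it (0.0081%), and no member had an unadjusted p under 0.05 in either fit. Their differences ran from -0.14 for SRXN1 to 0.04 for NQO1. SRXN1 was at 4.59 to 4.72 FPKM with TGF-β, below all 3 controls, and GCLC at 8.21 to 8.44, also below them, with 95% intervals with the block of -0.33 to 0.05 and -0.17 to 0.02. In cells with NH4Cl, limma again called 0 of 9 for TGF-β without the block (0% of all genes) and 0 of 9 with it (0.0081%), with no unadjusted p under 0.05 and differences from -0.07 for NQO1 to 0.09 for SRXN1.

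Whether the NH4Cl difference itself changed with TGF-β was tested by the interaction term of limma. It passed for 0 of 9 members with or without the block (0% of all genes in each), with no unadjusted p under 0.05. NQO1 had an interaction of -0.11 (95% interval with the block -0.28 to 0.06) and HMOX1 one of 0.05 (-0.25 to 0.35), so for neither gene was the NH4Cl difference shown to change with TGF-β. SRXN1 had the largest, 0.23 (-0.03 to 0.50, adjusted p = 0.992 with the block), from a difference of -0.13 without TGF-β and 0.10 with it.

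The wider pathway was taken as 6 lists of 62 other genes, of which 54 passed the filter. The lists were written with earlier results of these data known, so the counts below are descriptions. Shares over all genes, given beside the counts, were not matched for the level of these 54 genes. Without the block limma called none of them for NH4Cl against control, with 1 to 3 genes of each list at an unadjusted p under 0.05 (10.8% of all genes), and for NH4Cl plus TGF-β against TGF-β it called only PRDX5, a peroxiredoxin (0.29, adjusted p = 0.0354). That call was lost in limma with only the groups compared (adjusted p = 0.293, where 0% of all genes were called), without the FPKM filter (0.0825) and with TPM scaling (0.241). It was also lost in 5 of 6 fits that left out a library (0.0633 to 0.165), the exception being the one without TGF-β replicate 3. With the block, 14 rose and 3 fell with NH4Cl, 17 of 54 or 31.5%, where 7.42% of all genes rose and 6.14% fell. In TGF-β-treated cells 16 rose and 2 fell, where 10.3% and 8.48% of all genes did. These counts depended on single libraries, as did those over all genes: the first was 8 of 54 without control replicate 1, 7 without control replicate 2, 10 without NH4Cl replicate 1 and 8 without NH4Cl replicate 2, where 6.29%, 6.05%, 7.16% and 5.71% of all genes were called. The second was 11 without TGF-β replicate 1 or 2, where 10.9% and 10.1% were. With replicates 1 and 2 only, the first count was 13 with the block (9.29% of all genes) and 14 without it (10.5%), and the second 11 (13.4%) and 11 (14.1%). TPM scaling without the block called FTL alone of the list genes, for NH4Cl against control (adjusted p = 0.0475 in limma) and for both against TGF-β (0.0407). For TGF-β, without or with NH4Cl, limma with or without the block called none of them.

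Leaving out each of the 6 libraries in turn with the block, 6 of the 17 genes called for NH4Cl against control were called in every fit, namely SQSTM1, MGST1, PRDX5, TKT, FTH1 and FTL. For both treatments against TGF-β 9 of 18 were, these 6 among them. A matching share over all genes called is not given here, so the lists cannot be compared with other genes on this point. The calls of single lists that follow are for NH4Cl against control and come from limma with the block, since with all 12 libraries none of these genes passed without it, apart from FTL under TPM scaling. With the block 7.42% of all genes rose and 6.14% fell, and each list count is to be read against these shares. In the fits with the block that left out a library, 5.71% to 11.3% of all genes were called.

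Among the partners of KEAP1 and NRF2, 2 of 12 rose and none fell, near the 13.6% of all genes called in either direction. SQSTM1, the autophagy receptor p62 that binds KEAP1, went from 28.0 ± 6.11 to 41.5 ± 5.54 FPKM (SD, n = 3), a difference of 0.56 with adjusted p = 4.68e-04 in limma with the block and 0.224 without it. MAFG, a small MAF partner of NRF2, rose by 0.18 (adjusted p = 0.0409 in limma with the block), a call lost under the block with replicates 1 and 2 only (0.0702), with TPM scaling (0.0608) or median centring (0.0571), and without control replicate 2 or 3 or NH4Cl replicate 1 or 2, where the count for this list was 1. MAFF, another small MAF, was at -0.20 with an adjusted p of 0.0953. With replicates 1 and 2 only and no block, limma called MAFF (-0.30, adjusted p = 0.0366) and NFE2L3 of this list (-0.21, 0.0297) lower. That fit called SQSTM1 higher (0.63, 4.66e-04). NFE2L3 is named after its value was seen. The median of this list was 0.01.

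In the glutathione list 3 of 12 rose and 1 fell, against 7.42% and 6.14% of all genes. MGST1, a membrane glutathione transferase, rose by 0.33 (adjusted p = 0.00439 in limma with the block), and GPX4, which reduces lipid peroxides, by 0.19 (0.011), whereas GSTP1, a cytosolic transferase, fell by 0.13 (0.0467). GSR, glutathione reductase, rose by 0.13 (adjusted p = 0.0437) and is named after its value was seen. The call of GSR held in 0 of 6 limma fits with the block that left out a library, and that of GSTP1 in 1. GSR was also lost under the block with replicates 1 and 2 only (0.0917), TPM scaling (0.0704) or median centring (0.0719). Of these 4 calls, 2 were left with replicates 1 and 2 only and the block, 2 with TPM scaling and the block, 2 without any single control replicate or NH4Cl replicate 1, and 1 without NH4Cl replicate 2.

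In the list of thioredoxins and peroxiredoxins PRDX5 alone of 11 rose, by 0.21 (adjusted p = 0.00645 in limma with the block). It was also called with replicates 1 and 2 only (0.0444). A count of 1 of 11 is near the 7.42% of all genes that rose. PRDX1 was at 0.13 and TXN2 at -0.12, with adjusted p of 0.131 and 0.111. Of 6 NADPH-supplying enzymes, IDH1 rose by 0.22 (adjusted p = 0.0108) and TKT by 0.17 (0.00641), and TALDO1 fell by 0.15 (0.0176). All 3 of these calls held with replicates 1 and 2 only and the block, but 1 was left without control replicate 1 or 2. The call of TALDO1 held in only 1 of 6 fits with the block that left out a library.

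Of 6 tested genes for quinone and carbonyl detoxification, AKR1C3, an aldo-keto reductase with near-identical relatives that make its count uncertain, rose by 0.31 (adjusted p = 0.0252 in limma with the block) and PIR by 0.20 (0.0257). With replicates 1 and 2 only, AKR1C3 had an adjusted p of 0.023 with the block and 0.0525 without it, and PIR of 0.114 and 0.0864. The count for this list was 0 without control replicate 1, control replicate 2 or NH4Cl replicate 3, and 1 without each of the other libraries. EPHX1, an epoxide hydrolase, was at 0.13 with an adjusted p of 0.0743 with the block in limma.

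The heme and iron list had the highest median of the 6, at 0.21, with 4 of 7 genes that rose and 1 that fell. BLVRB, a biliverdin reductase, rose by 0.47 (adjusted p = 0.0239 in limma with the block). The ferritin chains FTH1 and FTL rose by 0.46 and 0.27, from 343 to 473 and from 1509 to 1816 FPKM, and both have many processed pseudogenes that can share their reads. BLVRA, the other biliverdin reductase, rose by 0.21 (adjusted p = 0.027) and is named after its value was seen. FECH, which inserts iron into protoporphyrin to form heme, fell by 0.27 (0.0126). The adjusted p of FTH1 in limma was 0.00103 with the block and 0.647 without it, and that of FTL was 0.00575 with the block and 0.0645 with the block and replicates 1 and 2 only. Of the 5 calls, 2 were left without control replicate 1, control replicate 2 or NH4Cl replicate 2, and 3 without NH4Cl replicate 1.

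**Figure D4:**
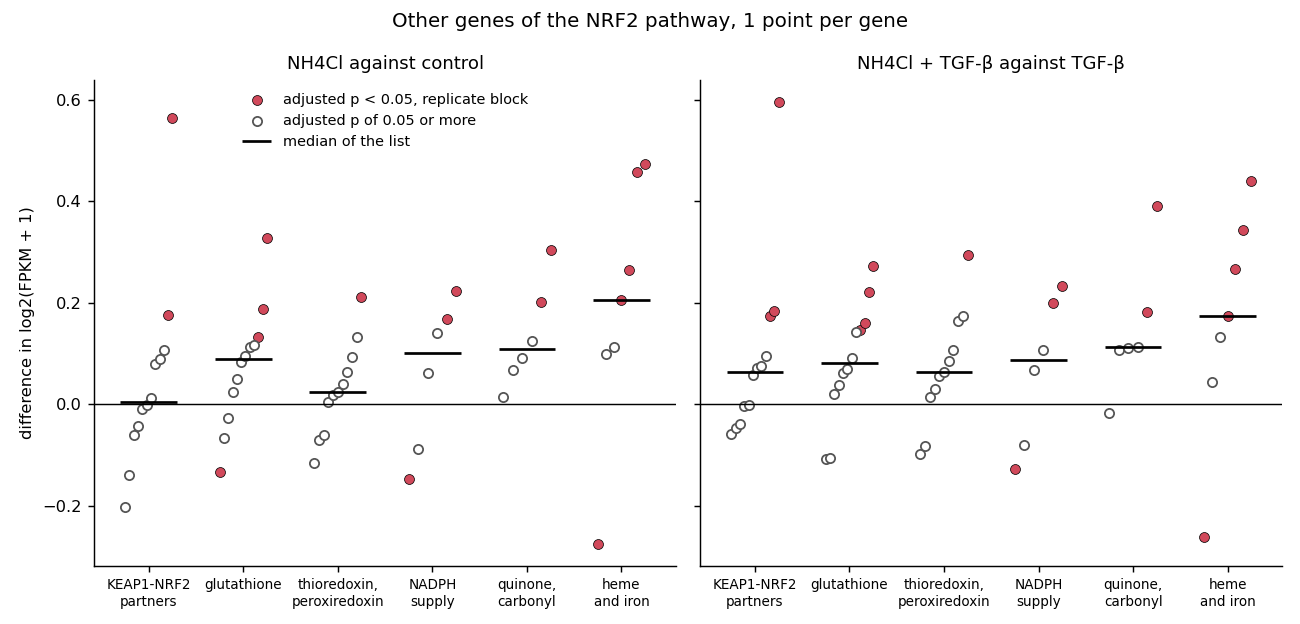
Difference in log2(FPKM + 1) (vertical axis) of the 54 other pathway genes tested, grouped by list, for NH4Cl against control (left) and NH4Cl plus TGF-β against TGF-β (right); red points have an adjusted p under 0.05 in limma with the replicate block, and bars are list medians. The highest points are SQSTM1 (0.56 and 0.60), and the heme and iron list has the highest median in both panels (0.21 and 0.17).

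The genes whose pattern was most like that of NQO1, the member with the largest difference for NH4Cl in log2(FPKM + 1), were found by the root mean square difference over 9 values, the log2(FPKM + 1) of each treated library minus the control of its number. Of the 12341 genes tested, the nearest were FTL at 0.0529, TMEM189 at 0.0533, ASAH1 at 0.056, TTC9C at 0.0602 and MGST1 at 0.0605. ASAH1 codes for a lysosomal ceramidase, and FTL and MGST1 are also in the pathway lists. All share the control libraries with NQO1, so the likeness is a description. With a pseudocount of 0.1 in place of 1, the difference of NQO1 was 0.33, below that of OSGIN1 (0.37) and close to that of HMOX1 (0.33), so the choice of NQO1 depends on the pseudocount. With NH4Cl these 5 differed from control by 0.24 to 0.33.

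Among the members, the nearest pair by the same measure was GCLC with TXNRD1 at 0.0526, both with small differences throughout. NQO1 was nearest to GCLM at 0.134, and HMOX1 to OSGIN1 at 0.145. HMOX1 and OSGIN1 were also highest in replicate 3 of every group, as was NFE2L2. SRXN1 was the farthest from NQO1, HMOX1, GCLM and OSGIN1, at 0.28 to 0.40, and its own nearest member, KEAP1, was at 0.173.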

How the data were processed

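RNA was sequenced from HCT116 cells in 4 groups of 3 libraries, grouped by the sample labels; doses and times are from the study's methods. According to the submitters' processing notes, reads were trimmed with Trimmomatic 0.36, aligned with STAR 2.5.2b and counted with featureCounts (Subread 1.5.2), whereas the study's methods name HTSeq; strand use in counting is not given in the sources used here. The authors deposited FPKM for 25733 genes per library, and all identifiers were found in GENCODE release 29. FPKM times exon length gave whole reads (within 0.02 read) for 100.0% of values, from which depth was summed.

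The 12341 genes whose FPKM averaged 1 or more were kept, and their deposited FPKM were analysed as log2(FPKM + 1), a scale that understates the fold changes of low genes. One limma 3.58.1 model (R 4.3.3; group means, intensity trend, two-sided) was fitted to all 12 libraries, tested on simulated data first, with Benjamini-Hochberg adjustment over all genes tested and a threshold of 0.05. The alternative with the replicate number as a block is printed because same-numbered libraries correlated in all 18 pairs (r of 0.349 to 0.774). The pairing comes from these correlations, not from the labels. Pairs of unlike number were not compared, and a replicate 3 that stands apart also gives positive r for replicates 1 and 2. Other steps used Python 3.11.15, numpy 2.4.6, pandas 2.3.3 and matplotlib 3.10.9.

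The members, the pathway lists, written from general knowledge, and the tests were chosen with earlier results of these data known. Named were all members, the 3 genes of each list with the largest difference for NH4Cl, and the 5 genes most like the member with the largest difference in log2(FPKM + 1), NQO1. GSR, BLVRA and NFE2L3 were named after their values were seen. Promoter sequences are RefSeq's. Other alternatives were a pseudocount of 0.1, no filter or a mean FPKM of at least 5, scaling to equal sums (TPM), median centring, only the groups compared, no intensity trend, replicates 1 and 2 only, and each library left out in turn. Median centring with the block and leaving out libraries with the block were chosen after seeing the data.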

Additional observations from a re-analysis of the deposited data

How the results depend on the processing

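None of the 9 genes passed in any of the 6 comparisons under a smaller pseudocount (0.1), without the FPKM filter, TPM scaling, median centring, no intensity trend or only the groups compared (not possible for the interaction, which needs all groups), nor in any fit without the block that left out 1 library (0 to 0). For NH4Cl against control and both against TGF-β, only the groups compared called 0% of all genes. The pseudocount, TPM, median centring and no-trend fits called 0.316% to 0.972%. At such shares 0 of 9 says little about the members. The shares without the filter and with a library left out are not given here. With a filter of 5 FPKM none of the 6 genes that remained passed; HMOX1, SRXN1 and OSGIN1 fell below that filter and were not tested under it. Under the replicate block the counts were 1 for NH4Cl against control, 1 for both treatments against control and 2 for both against TGF-β. Of all genes 13.6%, 18.4% and 18.8% were called there. The counts were 1, 1 and 2 with the block and TPM scaling (1473, 2058 and 2060 of all 12341 genes). They were 1, 1 and 2 with the block and median centring (1669, 2303 and 2370 genes). With replicates 1 and 2 only they were 1, 1 and 1, where 10.5% of all genes were called in the first comparison and 14.1% in the third. With these replicates and the block they were 1, 1 and 1 (1147, 1605 and 1653 genes). Counts of 1 or 2 of 9 are near these shares. The replicate block changed no other call of a member. Leaving out each library with the block gave 1 to 1, 0 to 1 and 0 to 2 genes, where 705 to 1398, 1169 to 1720 and 1249 to 1798 of all genes were called. The second count was 0 without control replicate 1, control replicate 2 or replicate 1 of both treatments, and the third was 2 only without TGF-β replicate 3. The cause of these changes was not tested. Depth limits OSGIN1 and HMOX1 most.

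No called difference changed sign. Among differences past no threshold, the sign changed with TPM scaling, with or without the block, for GCLC in both against NH4Cl (-0.000798), and with median centring, with or without the block, for NFE2L2 in TGF-β against control (-0.00342). With replicates 1 and 2 only, with or without the block, it changed for NFE2L2 in both against TGF-β (-0.00531), for TXNRD1 (0.0101) and OSGIN1 (-0.137) in TGF-β against control, for KEAP1 (0.00608), GCLM (0.0618) and SRXN1 (-0.00197) in both against NH4Cl, and for KEAP1 (0.0373), GCLM (0.0435) and OSGIN1 (0.133) in the interaction. Leaving out each library in turn without the block changed the sign of other differences past no threshold, listed with their lowest and highest values. In NH4Cl against control these were NFE2L2 (-0.0519 to 0.161), KEAP1 (-0.143 to 0.0594) and HMOX1 (-0.0174 to 0.482). In both against control these were NFE2L2 (-0.0565 to 0.152), KEAP1 (-0.153 to 0.0655) and SRXN1 (-0.108 to 0.038). In both against TGF-β these were NFE2L2 (-0.0581 to 0.15), KEAP1 (-0.121 to 0.0682) and TXNRD1 (-0.00433 to 0.0900). In TGF-β against control these were NFE2L2 (-0.0545 to 0.10004), KEAP1 (-0.116 to 0.0821), NQO1 (-0.0637 to 0.168), HMOX1 (-0.37 to 0.144), GCLM (-0.0343 to 0.0874), TXNRD1 (-0.0515 to 0.0458) and OSGIN1 (-0.207 to 0.192). In both against NH4Cl these were NFE2L2 (-0.119 to 0.102), KEAP1 (-0.0985 to 0.0951), NQO1 (-0.153 to 0.0357), HMOX1 (-0.219 to 0.307), GCLC (-0.0278 to 0.0405), GCLM (-0.0385 to 0.0406) and OSGIN1 (-0.124 to 0.104). In the interaction these were NFE2L2 (-0.121 to 0.101), KEAP1 (-0.0958 to 0.107), NQO1 (-0.241 to 0.000134), HMOX1 (-0.177 to 0.379), GCLM (-0.0933 to 0.0285), TXNRD1 (-0.0844 to 0.0129) and OSGIN1 (-0.207 to 0.192). Other differences kept their sign in these fits but moved by over 1.5 times. In NH4Cl against control these were GCLC (0.0212 to 0.0831), GCLM (0.101 to 0.205), TXNRD1 (0.0444 to 0.102), SRXN1 (-0.207 to -0.0917) and OSGIN1 (0.131 to 0.323). In both against control these were NQO1 (0.146 to 0.343), HMOX1 (0.0608 to 0.477), GCLC (0.0335 to 0.0955), GCLM (0.0950 to 0.211), TXNRD1 (0.00576 to 0.0631) and OSGIN1 (0.127 to 0.333). In both against TGF-β these were NQO1 (0.0668 to 0.308), HMOX1 (0.103 to 0.659), GCLM (0.0767 to 0.176), SRXN1 (0.0346 to 0.181) and OSGIN1 (0.0435 to 0.442). In both against NH4Cl these were TXNRD1 (-0.0607 to -0.0257) and SRXN1 (0.0269 to 0.173), and in the interaction GCLC (0.0428 to 0.111).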
